A study of Mus musculus with 8 samples.

Results

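The DUSP MAP kinase phosphatases described here are the 10 genes Dusp1, Dusp2, Dusp4, Dusp5, Dusp6, Dusp7, Dusp8, Dusp10, Dusp14 and Dusp16, taken by symbol from the 25237 genes of the deposited table. All 10 were in the table, and all 10 were among the 14022 genes tested, which had a mean of at least 10 normalized counts over the 8 libraries. The RNA came from muscle stem cells of hindlimb muscle, sorted for surface VCAM1 and against CD31, CD45 and Sca1. The ketones group held 4 libraries from male wild type mice given ketone bodies, with strain entries of C57BL/7, C57BL/8, C57BL/9 and C57BL/9. The PBS group held 4 libraries from male wild type mice given phosphate-buffered saline, with the strain entry C57BL/6. Mice of both groups were 2 to 4 months old. The sources used here give no dose, route or duration. Strain and treatment cannot be told apart if the strain entries are meant as written. The labels do not tie each library to its own animal, so the spread behind the p-values is that of libraries and may be technical.

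MAP kinases are switched on by phosphorylation of a threonine and a tyrosine in their activation loop, and DUSP enzymes switch them off by removing both phosphates. Dusp1, Dusp2, Dusp4 and Dusp5 encode nuclear enzymes whose genes are themselves induced by MAP kinase signalling, Dusp6 and Dusp7 encode cytoplasmic enzymes that prefer ERK, and Dusp8, Dusp10 and Dusp16 encode enzymes that prefer JNK and p38. Dusp14 encodes a small atypical enzyme without the amino-terminal kinase-binding domain of the others. In muscle stem cells, ERK and p38 signalling accompany the exit from quiescence, and tissue dissociation is known to induce immediate early genes, Dusp1 among them.

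The libraries held 19174005 to 36870537 recovered reads. Transcripts of other cell types moved with the groups. Over all tested genes 12.8% were higher and 12.8% lower in ketones libraries. All 19 endothelial markers were higher in ketones libraries, with a median log2 change of 2.65, and their summed level was 42265 to 99780 normalized counts in ketones libraries, against 11483 to 14673 in PBS libraries. Pecam1, which encodes CD31, averaged 4233 ± 1506 normalized counts in ketones libraries and 733 ± 118 in PBS libraries (SD, n = 4 each, as in all means of normalized counts below). Of 15 muscle stem cell markers 6 were lower and 0 higher in ketones libraries, and Vcam1, the positive sort marker, averaged 24880 ± 10765 normalized counts in ketones libraries and 42043 ± 3281 in PBS libraries (adjusted p = 0.0206). Ly6a, which encodes Sca1, averaged 4907 ± 1742 in ketones libraries and 535 ± 29.7 in PBS libraries, and Ptprc, which encodes CD45, averaged 94.1 ± 136 in ketones libraries and 20.3 ± 5.49 in PBS libraries and did not pass (adjusted p = 0.217). Among other markers, 8 of 13 smooth muscle and pericyte genes were higher and 2 lower, 7 of 15 tested immune genes were higher, 6 of 12 fibro-adipogenic genes were higher and 3 lower, 7 of 10 Schwann cell genes were higher, and 9 of 14 myofiber genes were higher and 2 lower. Ketones library 1 stood apart for myofiber genes, with a summed level of 34902 normalized counts. The other 3 ketones libraries held 6072 to 8249, against 11243 to 15859 in PBS libraries. The mean log2 level of the 14 genes ran the other way, at 7.66 to 10.4 in all ketones libraries and 6.75 to 7.42 in PBS libraries. The summed immune markers were uneven too, with 11592, 1490, 3427 and 7268 normalized counts in ketones libraries 1 to 4, against 1079 to 1428 in PBS libraries. Rn45s, the precursor of ribosomal RNA, set ketones libraries 1 and 2 apart, with 363069 and 396262 normalized counts, against 60108 to 118863 in the other 6 libraries. In bulk RNA, fewer cells of a type and less RNA per cell cannot be told apart. The part of these differences in the results below was not tested.

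Dusp1 was by far the most abundant member in both groups. Per kilobase of exon, Dusp1 averaged 11974 ± 1558 normalized counts in ketones libraries and 7083 ± 522 in PBS libraries. That level ranked 81st of 13763 tested genes with a gene model in ketones libraries and 144th in PBS libraries. Dusp1 made up 73.7% ± 0.953 of the summed level per kilobase of the 10 members in ketones libraries and 59.3% ± 0.851 in PBS libraries. The shares are a description and carry no test. The summed level per kilobase of the 10 members was 16262 ± 2215 in ketones libraries and 11941 ± 844 in PBS libraries, and without Dusp1 it was 4287 ± 677 in ketones libraries and 4858 ± 344 in PBS libraries. Thus the sum without Dusp1 overlapped between the groups, while the sum with it, at 13849 to 18713 in ketones libraries against 11330 to 13120 in PBS libraries, did not.

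The order below Dusp1 differed between the groups. In ketones libraries the levels per kilobase ran Dusp8 (1129 ± 175), Dusp5 (992 ± 228), Dusp10 (784 ± 261), Dusp6 (505 ± 102), Dusp14 (293 ± 79), Dusp16 (196 ± 24.6), Dusp2 (171 ± 57.4), Dusp7 (114 ± 28.2) and Dusp4 (104 ± 38.3). In ketones libraries each of these neighbours overlapped with the next in its range over libraries, and only Dusp1 stood clear of the gene after it. In PBS libraries the order was Dusp10 (1325 ± 127), Dusp8 (1306 ± 122), Dusp5 (939.8 ± 123), Dusp6 (532 ± 83.9), Dusp16 (255 ± 14.2), Dusp14 (239 ± 25.6), Dusp4 (144 ± 12.7), Dusp7 (72.2 ± 16.3) and Dusp2 (44.4 ± 8.38). Here Dusp10 overlapped with Dusp8 and Dusp16 with Dusp14, and the other neighbours did not overlap. The libraries of the ketones group also varied more, with a median coefficient of variation over the 10 members of 23.8% in ketones libraries and 10.2% in PBS libraries, beside 27.0% in ketones libraries and 13.9% in PBS libraries over all tested genes.

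**Figure D1:**
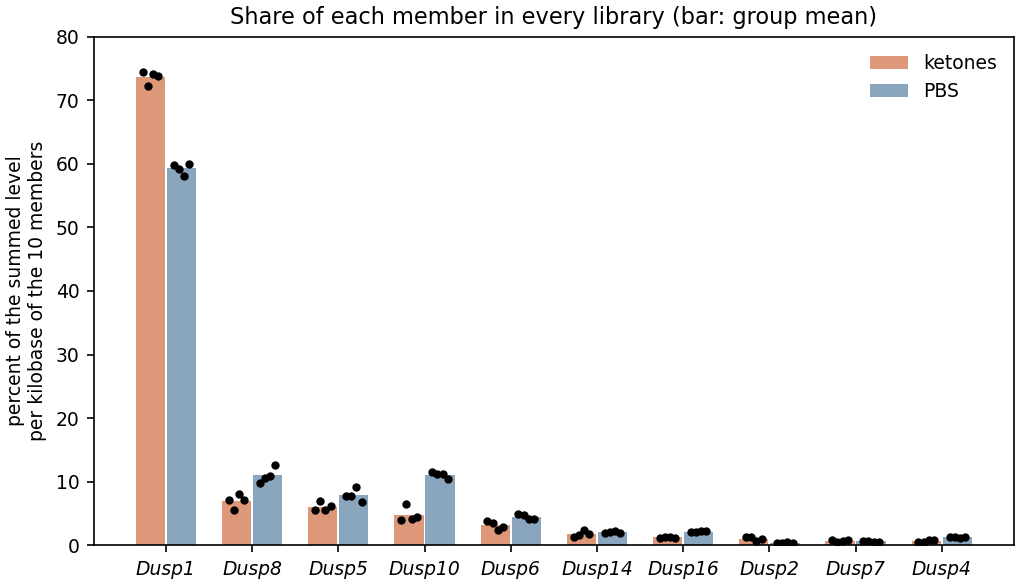
Share of each DUSP member in the summed level per kilobase of exon of the 10 members, in percent. Bars give group means and points the 4 libraries of each group, with ketones left of PBS. Dusp1 held 72.3 to 74.5% in ketones libraries and 58.1 to 60.0% in PBS libraries, and Dusp10 held 4.03 to 6.52% in ketones libraries and 10.4 to 11.4% in PBS libraries. Shares are parts of the same sum, so a larger share of Dusp1 leaves smaller shares for the others. Dusp8, whose change did not pass, held 5.60 to 8.01% in ketones libraries and 9.83 to 12.6% in PBS libraries.

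The sequence before the transcription start was searched for motifs of the pathways that act on these genes. The 250 bases before the RefSeq start were read for 9 members (RefSeq promoters, build GRCm38.p6), and Dusp4 is named only. For Dusp1, Dusp8, Dusp10 and Dusp14 the window lies inside the gene span of GENCODE M21. Another annotated start of these genes thus lies further upstream, and the bases before it were not searched. Searched on both strands were the cyclic AMP response element TGACGTCA, its core TGACG, the AP-1 site TGANTCA, the CArG box of serum response factor (CC and GG with 6 bases of A or T between) and the glucocorticoid response element (AGAACA and its reverse complement with 3 bases between). A full TGACGTCA also counts as TGACG. The full TGACGTCA was found before Dusp1 and Dusp8, in 1.55% of all 32851 promoters and in 2.45% of the promoters of tested genes. The core was found before 4 of the 9 members, Dusp1, Dusp5, Dusp8 and Dusp16, in 17.8% of all promoters and in 25.6% of those of tested genes. The CArG box was found before Dusp5, 2 copies side by side, in 1.47% of all promoters and in 1.21% of those of tested genes. The AP-1 site was found before 0 of the 9, in 6.75% of all promoters and in 4.62% of those of tested genes. The glucocorticoid element was found before 0 of the 9, in 0.00913% of all promoters and in 0.00713% of those of tested genes. The members' windows held 56.4 to 77.2% G and C, against a median of 52.4% over all promoters. The windows are shown for the members that hold a full TGACGTCA or a CArG box and for Dusp2 and Dusp10, which changed most in each direction, with matches in capitals. They lie at chr17:26508473-26508722 (minus strand), chr7:142095285-142095534 (minus strand), chr19:53528895-53529144 (plus strand), chr2:127335909-127336158 (plus strand) and chr1:184034131-184034380 (plus strand).
Dusp1: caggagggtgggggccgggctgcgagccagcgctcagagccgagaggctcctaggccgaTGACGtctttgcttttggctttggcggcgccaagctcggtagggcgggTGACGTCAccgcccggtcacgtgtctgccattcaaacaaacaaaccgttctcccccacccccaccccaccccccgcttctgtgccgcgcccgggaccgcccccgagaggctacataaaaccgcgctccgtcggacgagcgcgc
Dusp8: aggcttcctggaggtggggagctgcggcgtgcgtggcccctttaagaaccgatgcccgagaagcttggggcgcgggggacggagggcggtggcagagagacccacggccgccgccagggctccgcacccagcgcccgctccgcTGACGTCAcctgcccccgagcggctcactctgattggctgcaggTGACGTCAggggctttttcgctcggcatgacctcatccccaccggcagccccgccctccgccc
Dusp5: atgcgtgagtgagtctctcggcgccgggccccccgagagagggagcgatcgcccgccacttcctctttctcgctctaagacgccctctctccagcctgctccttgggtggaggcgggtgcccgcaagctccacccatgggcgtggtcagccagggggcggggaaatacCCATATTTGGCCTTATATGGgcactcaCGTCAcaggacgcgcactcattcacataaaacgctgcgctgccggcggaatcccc
Dusp2: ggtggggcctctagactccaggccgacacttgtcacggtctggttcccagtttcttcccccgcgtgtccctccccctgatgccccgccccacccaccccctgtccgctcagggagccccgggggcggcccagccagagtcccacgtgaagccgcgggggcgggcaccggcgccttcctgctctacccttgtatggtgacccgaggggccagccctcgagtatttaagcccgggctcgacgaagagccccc
Dusp10: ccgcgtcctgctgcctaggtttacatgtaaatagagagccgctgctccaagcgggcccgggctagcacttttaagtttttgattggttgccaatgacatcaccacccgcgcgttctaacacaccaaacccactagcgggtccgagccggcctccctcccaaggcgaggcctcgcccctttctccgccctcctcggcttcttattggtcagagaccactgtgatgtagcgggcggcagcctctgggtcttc
Dusp1 holds its full element 143 to 136 bases before the start and a core copy at 191 to 187 bases, and Dusp8 holds full elements at 107 to 100 and 63 to 56 bases. A match is a description of the sequence and shows no binding, and a link between motifs and the changes below was not tested.

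Of the 10 members, 3 were higher and 1 was lower in ketones libraries at an adjusted p below 0.05 by limma, and 6 did not pass. Over all tested genes 12.8% were higher, 12.8% were lower and 25.7% passed in either direction. The groups did not overlap for 5 members, 3 higher and 2 lower, beside 28.3% of all tested genes in either direction. The median log2 change was -0.01 over the 10 members and -0.01 over all tested genes. Dusp1, Dusp2 and Dusp7 were the members that rose, and Dusp10 was the member that fell.

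**Figure D2:**
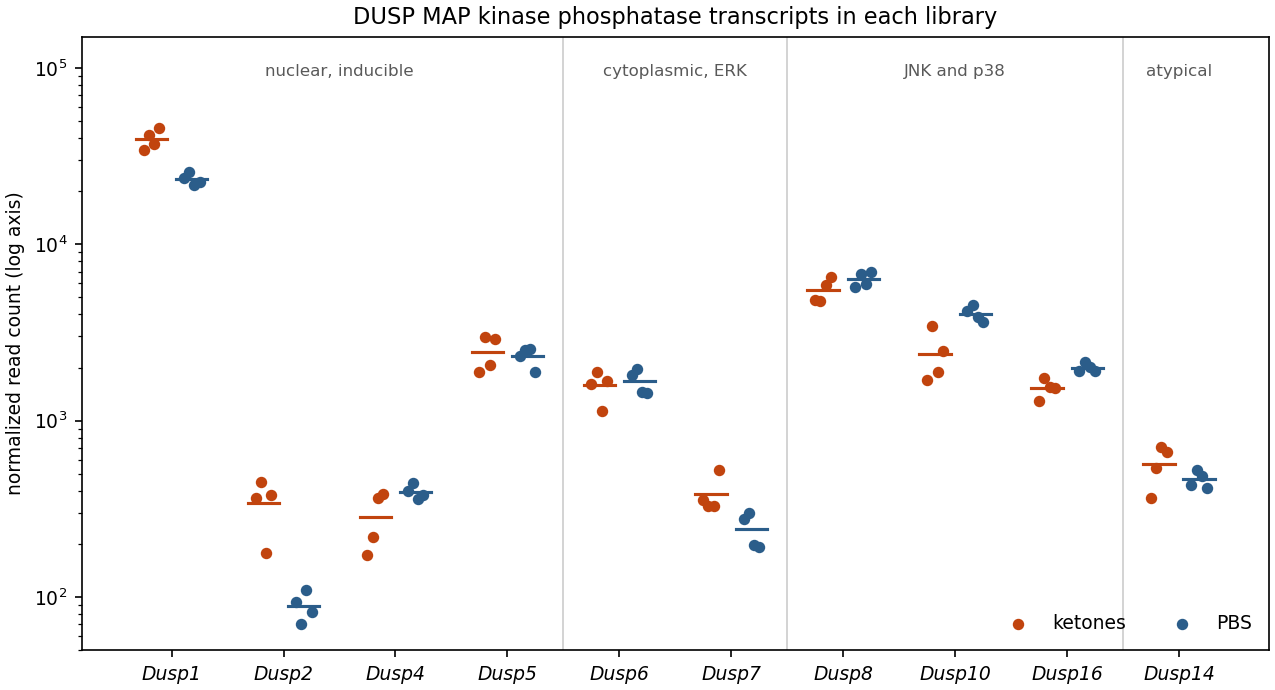
Normalized read count of each DUSP member in every library, on a log axis, grouped by the role of the enzyme. Points are libraries, short lines are group means, and ketones stands left of PBS. Dusp1, Dusp2 and Dusp7 lay higher in all 4 ketones libraries than in any PBS library, and Dusp10 and Dusp16 lay lower.

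Among the nuclear inducible enzymes, Dusp1 dephosphorylates p38, JNK and ERK and lies on chromosome 17 (26505590 to 26562128, minus strand, GENCODE M21 on GRCm38). Dusp1 had 34159, 41763, 36885 and 45779 normalized counts in ketones libraries 1 to 4, against 23761, 25744, 21803 and 22496 in PBS libraries 1 to 4. Every ketones library was above every PBS library. The log2 change was 0.75 ± 0.16 (SE), a ratio of means of 1.69, with adjusted p = 0.00369. One annotated Dusp1 transcript extends over exons of Ergic1 on the opposite strand, and the sources used here do not say whether counting used strand. Ergic1 encodes a protein of vesicle traffic between the endoplasmic reticulum and the Golgi. It averaged 1742 ± 285 normalized counts in ketones libraries and 5546 ± 460 in PBS libraries. Whether reads of Ergic1 entered the Dusp1 counts was not tested.

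Dusp2, known from activated immune cells, where the enzyme acts on ERK and p38, changed most among the members (chromosome 2, 127336159 to 127338376). It had 362, 448, 178 and 378 normalized counts in ketones libraries 1 to 4, against 93.2, 70.4, 109.8 and 82.1 in PBS libraries 1 to 4. The groups did not overlap, and ketones library 3 was the lowest of its group. The log2 change was 1.87 ± 0.29, with a 95% interval of 1.24 to 2.50 and adjusted p = 0.000453. The mean log2 level of the endothelial markers was 11.36, 11.28, 10.06 and 11.16 in ketones libraries 1 to 4, against 8.26, 8.29, 8.68 and 8.48 in PBS libraries 1 to 4. Both Dusp2 and these markers were lowest in library 3 among ketones libraries and highest in library 3 among PBS libraries. In each group the other libraries ran in a different order for Dusp2 than for the markers, and a link was not tested. With this mean as a covariate the log2 change of Dusp2 was -0.49 (adjusted p = 0.861), but the covariate itself follows the groups, and 0 of 14022 genes passed by limma with it (1438 at an unadjusted p below 0.05).

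**Figure D3:**
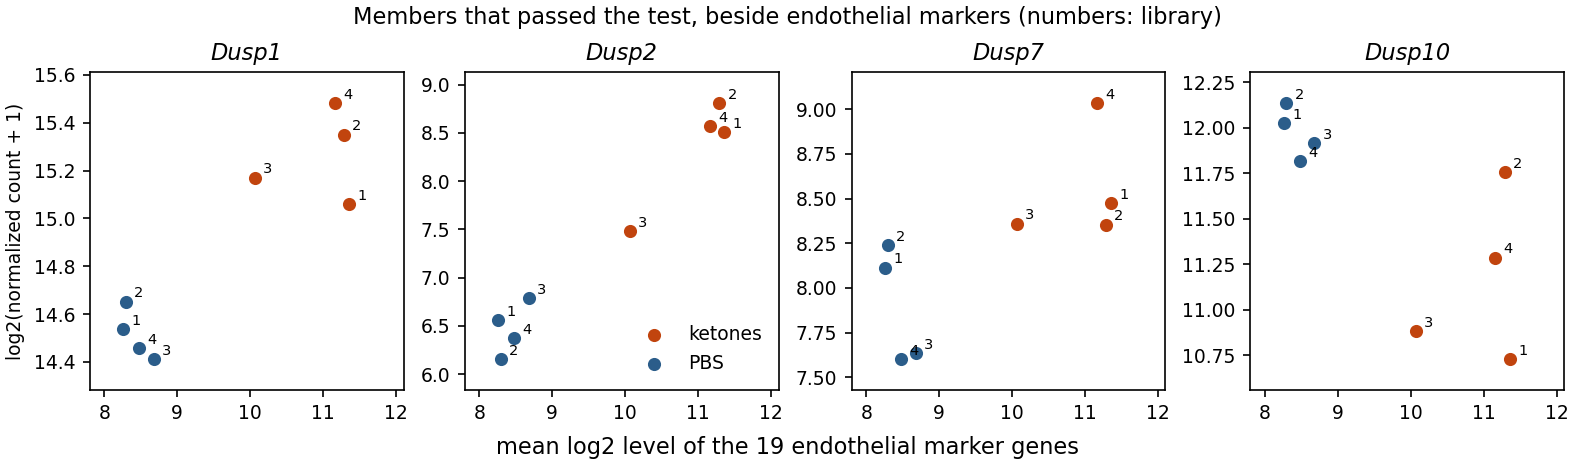
Log2(normalized count + 1) of the 4 members that passed the test, on the vertical axes, against the mean log2 level of the 19 endothelial markers in the same library. Points are libraries, numbered within their group. The markers ran from 10.06 to 11.36 in ketones libraries and from 8.26 to 8.68 in PBS libraries, and no library lies between.

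Dusp4 and Dusp5 did not pass. Dusp4, whose product acts on ERK and JNK, had 172, 220.0, 363 and 385 normalized counts in ketones libraries 1 to 4, against 399, 441, 359 and 381 in PBS libraries 1 to 4. Ketones libraries 1 and 2, the libraries with high Rn45s, were below every PBS library, and ketones libraries 3 and 4 lay within the PBS range. The log2 change was -0.54 with an interval of -1.09 to -0.000507 (adjusted p = 0.132), and without ketones libraries 1 and 2 it was -0.07 (adjusted p = 0.768). Dusp5, which encodes an enzyme specific for ERK, had 1882, 2985, 2058 and 2886 normalized counts in ketones libraries 1 to 4, against 2314, 2529, 2557 and 1896 in PBS libraries 1 to 4. The groups overlapped, and the interval of its log2 change ran from -0.33 to 0.44.

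For the cytoplasmic enzymes that prefer ERK, Dusp6 stayed within the spread and Dusp7 passed narrowly. Dusp6, the feedback phosphatase of receptor tyrosine kinase signalling, had 1621, 1891, 1137 and 1683 normalized counts in ketones libraries 1 to 4, against 1814, 1963, 1452 and 1440.1 in PBS libraries 1 to 4. Its log2 change was -0.09, with an interval of -0.47 to 0.30 (adjusted p = 0.76). Dusp7 (chromosome 9, 106368632 to 106375724) had 355, 326, 328 and 523 normalized counts in ketones libraries 1 to 4, against 276, 301, 198 and 193 in PBS libraries 1 to 4. All ketones libraries were above all PBS libraries, but ketones libraries 2 and 3 exceeded PBS library 2 by little. The log2 change was 0.66 ± 0.23 with adjusted p = 0.0486, and the pass was lost without ketones library 1 or 4 (adjusted p = 0.052 and 0.138) and without PBS library 1, 3 or 4 (adjusted p = 0.073, 0.142 and 0.146).

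The enzymes that prefer JNK and p38 were lower or did not pass. Dusp10 (chromosome 1, 184013302 to 184075636) had 1696, 3458, 1885 and 2496 normalized counts in ketones libraries 1 to 4, against 4171, 4497, 3859 and 3601 in PBS libraries 1 to 4. Ketones library 2 came close to the lowest PBS library, and the groups did not overlap. The log2 change was -0.81 ± 0.20, with an interval of -1.24 to -0.38 and adjusted p = 0.00945. Dusp16 (chromosome 6, 134715468 to 134792625) had 1286, 1755, 1549 and 1531 normalized counts in ketones libraries 1 to 4, against 1906, 2142, 2002 and 1909 in PBS libraries 1 to 4. The groups did not overlap, but the change missed the threshold, with a log2 change of -0.39 ± 0.14 and adjusted p = 0.0624. Without ketones library 2 it passed (log2 change -0.45, adjusted p = 0.0285), and so it did without ketones libraries 1 and 2 (adjusted p = 0.0283). Dusp8, the most abundant of these genes per kilobase in ketones libraries, had 4843, 4759, 5865 and 6531 normalized counts in ketones libraries 1 to 4, against 5739, 6753, 5979 and 6971 in PBS libraries 1 to 4. The groups overlapped, and the interval of its log2 change ran from -0.54 to 0.10. Dusp8 did not pass (adjusted p = 0.311).

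The atypical Dusp14 did not pass over all libraries. It had 364, 542, 709.8 and 661 normalized counts in ketones libraries 1 to 4, against 433, 525, 485 and 416 in PBS libraries 1 to 4. Ketones library 1, the library high in myofiber genes, was the lowest of all 8 libraries, and the other 3 ketones libraries were above every PBS library. The log2 change was 0.25, with an interval of -0.21 to 0.71 (adjusted p = 0.412). Without ketones libraries 1 and 2 it was 0.56 and passed (adjusted p = 0.0151), so the outcome for Dusp14 rests on which ketones libraries enter.

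**Figure D4:**
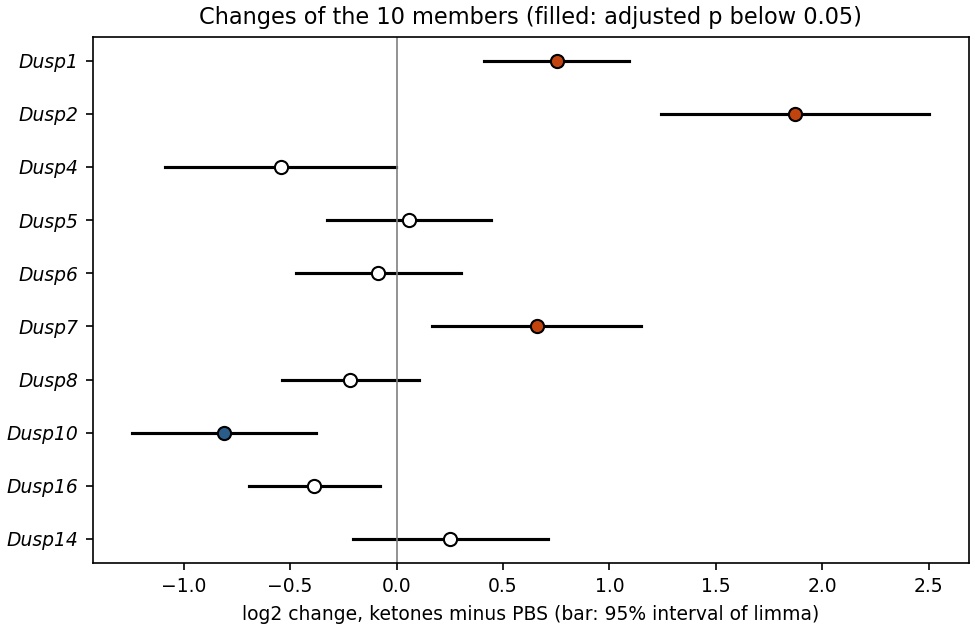
Log2 change of each DUSP member, ketones minus PBS, with the 95% interval from limma. Filled points passed at an adjusted p below 0.05. Dusp2 lies highest at 1.87, Dusp1 at 0.75 and Dusp7 at 0.66, and Dusp10 lies lowest at -0.81.

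The profiles nearest to each member over the 8 libraries were taken as the smallest root mean square difference in log2 units after each gene was centred on its own mean. The nearest to Dusp1 were Endod1 (0.08) and Taf9b (0.10), and the nearest to Dusp2 were Rnd2 (0.17) and Rbp7 (0.18). Dusp7 lay nearest to Tnfsf12 and Fn1 (0.15 each), and Dusp10 nearest to Grwd1 and Rnf24 (0.09 each). Dusp6 had Eif3m and Phlda1 (0.10 each) as its nearest genes, and Phlda1 is itself known to respond to ERK signalling. Dusp16 and Dusp14 had the closest matches, Pum3 (0.05) and Actg1 (0.05). Ammecr1l and Mxd1 came second to these (0.06 each). The remaining nearest genes were Pcdhgc3 and Edem1 for Dusp4, Mettl6 and Emc6 for Dusp5 and Ube2g1 and Ank for Dusp8. Such likeness describes these libraries and was not tested.

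Other phosphatases of the same pathways were compared with the same fit. Of 13 tested dual-specificity phosphatases outside the 10, 3 were higher (23.1%) and 0 lower by limma, beside 12.8% of all tested genes in each direction. Their median log2 change was 0.09. Dusp26, an atypical phosphatase, averaged 524 ± 99.3 normalized counts in ketones libraries and 75.8 ± 13.5 in PBS libraries, a log2 change of 2.77 (adjusted p = 3.36e-06). Dusp18 and Dusp23 had log2 changes of 1.12 and 1.03 (adjusted p = 0.00663 and 0.00751). Dusp9, an ERK-directed enzyme of the same class as Dusp6 and Dusp7, was near the detection limit, at 11.8 ± 8.34 normalized counts in ketones libraries and 25.2 ± 11.5 in PBS libraries (adjusted p = 0.207). Of 7 tested phosphatases of other families that act on MAP kinases, 1 was higher (14.3%) and 0 lower. This was Ptprr, a tyrosine phosphatase that binds ERK and p38, at 231 ± 55 normalized counts in ketones libraries and 24.1 ± 4.69 in PBS libraries (log2 change 3.20, adjusted p = 8.43e-06). Without ketones library 1, 1 gene of the first list and 1 of the second were lower and 2 of the second were higher. Without ketones libraries 1 and 2 the second list also had 2 higher. Over all tested genes 1943 were higher and 2127 lower of 13904 without ketones library 1. Without ketones libraries 1 and 2, 2239 of 13782 were higher, against 1800 of 14022 with all libraries.

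The kinases that these enzymes act on, and those above them, are given beside the 12.8% of all tested genes that were higher and the 12.8% that were lower. In the RAS and ERK cascade 1 of 24 genes was higher and 2 were lower, with a median log2 change of -0.18. Rras2, a RAS-related GTPase, averaged 1219 ± 108 normalized counts in ketones libraries and 2774 ± 219 in PBS libraries (log2 change -1.19), and Mapk7, which encodes ERK5, changed by -0.77 (adjusted p = 0.025). Map3k3 changed by 0.67 (adjusted p = 0.00266). Mapk3, which encodes ERK1, had a log2 change of 0.11 and did not pass (adjusted p = 0.647). The count lower was 6 without ketones library 2, 1 without ketones library 3 or 4 or PBS library 1, and 7 without ketones libraries 1 and 2. The count higher was 3 without ketones library 1 and 3 without ketones libraries 1 and 2. Over all tested genes 1816 were lower without ketones library 2, 1799 without ketones library 3 and 1608 without ketones library 4. That number was 1084 without PBS library 1 and 2443 without ketones libraries 1 and 2, against 1800 with all libraries. The number higher over all tested genes was 1943 without ketones library 1 and 2239 without ketones libraries 1 and 2. From 13782 to 14076 genes were tested in these settings.

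In the JNK cascade 1 of 14 genes was higher and 1 lower. The scaffold gene Mapk8ip1 averaged 472 ± 66.9 normalized counts in ketones libraries and 803 ± 93.6 in PBS libraries (adjusted p = 0.00459), and Map3k1 changed by 0.57 (adjusted p = 0.0444). The pass of Map3k1 was the 1 higher, and the count higher was 0 without ketones library 2, 3 or 4 or PBS library 1, 2 or 3. Without ketones libraries 1 and 2 it was 3, and 2 were lower. Over all tested genes 1272 to 1810 were higher without ketones library 2, 3 or 4 or PBS library 1, 2 or 3. Without ketones libraries 1 and 2, 2239 were higher and 2443 lower over all tested genes, against 1800 each with all libraries. Mapk8, which encodes JNK1, had a log2 change of -0.13 (adjusted p = 0.752). In the p38 cascade 2 of 14 tested genes were higher and 4 lower. Mapk12, the p38 gamma gene of muscle fibres, averaged 345 ± 115 normalized counts in ketones libraries and 88.1 ± 22 in PBS libraries (log2 change 1.93, adjusted p = 0.000307). Map3k5, Rps6ka5 and Map2k6 had log2 changes of -0.58, -0.66 and -0.95 (adjusted p = 0.0196, 0.0207 and 0.0287), and Mapk14, which encodes p38 alpha, had 0.24 (adjusted p = 0.336). The p38 count lower was 0 without PBS library 1, 3 or 4 and 2 without PBS library 2. Over all tested genes 1084 to 1243 were lower without PBS library 1, 3 or 4 and 1442 without PBS library 2. The p38 count higher was 1 without ketones library 1 or 4, without both ketones libraries 1 and 2, or without PBS library 1, 2 or 4. Over all tested genes 1943 were higher without ketones library 1 and 1514 without ketones library 4. That number was 1272 to 1443 without PBS library 1, 2 or 4.

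Of 20 ERK output and feedback genes outside the 10 members 2 were higher (10%) and 3 lower (15%), near the 12.8% of all tested genes in each direction, with a median log2 change of -0.18. Ccnd1, which encodes cyclin D1, averaged 104 ± 49.6 normalized counts in ketones libraries and 1683 ± 284 in PBS libraries (log2 change -4.13), and the feedback inhibitor gene Spry2 changed by -0.74 (adjusted p = 0.0313). Ier3 averaged 14529 ± 4090 normalized counts in ketones libraries and 6960 ± 436 in PBS libraries (log2 change 1.02, adjusted p = 0.00172), and the ETS factor gene Etv1 changed by 1.05 (adjusted p = 0.0358). The count lower was 1 without PBS library 1, 2 or 3, and the count higher was 1 without ketones library 4 or PBS library 1, 2 or 3. Over all tested genes 1084 to 1442 were lower without PBS library 1, 2 or 3, against 1800 with all libraries. The number higher over all tested genes was 1514 without ketones library 4 and 1272 to 1443 without PBS library 1, 2 or 3, against 1800.

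Of 20 immediate early genes 6 were higher (30%) and 1 lower (5%), beside 12.8% of all tested genes in each direction. Their median log2 change was 0.24. Klf2, a shear-responsive factor gene of endothelium, changed by 2.12, Socs3, a cytokine feedback gene, by 1.26, Klf4 by 1.20 and Gadd45b by 0.93, each with adjusted p of 0.00183 or less. Fos averaged 141656 ± 21550 normalized counts in ketones libraries and 142966 ± 10919 in PBS libraries, and Egr1 averaged 329911 ± 82247 in ketones libraries and 350806 ± 46355 in PBS libraries. Neither passed (adjusted p = 0.949 and 0.778). The mean log2 level of the 20 genes was 15.14 to 15.40 in ketones libraries and 14.78 to 15.05 in PBS libraries. This mean was 8.78 to 9.45 in ketones libraries and 8.41 to 8.77 in PBS libraries for phosphatases of other families. It was lower in ketones libraries for ERK output and feedback genes (10.33 to 10.81, against 10.84 to 11.01) and the RAS and ERK cascade (10.521 to 10.757, against 10.759 to 10.852). The groups overlapped for the other dual-specificity phosphatases and the JNK and p38 cascades. Without ketones libraries 1 and 2, 11 of the 20 immediate early genes were higher, beside 2239 of all 13782 tested genes. With all libraries these counts were 6 of 20 and 1800 of 14022.

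**Figure D5:**
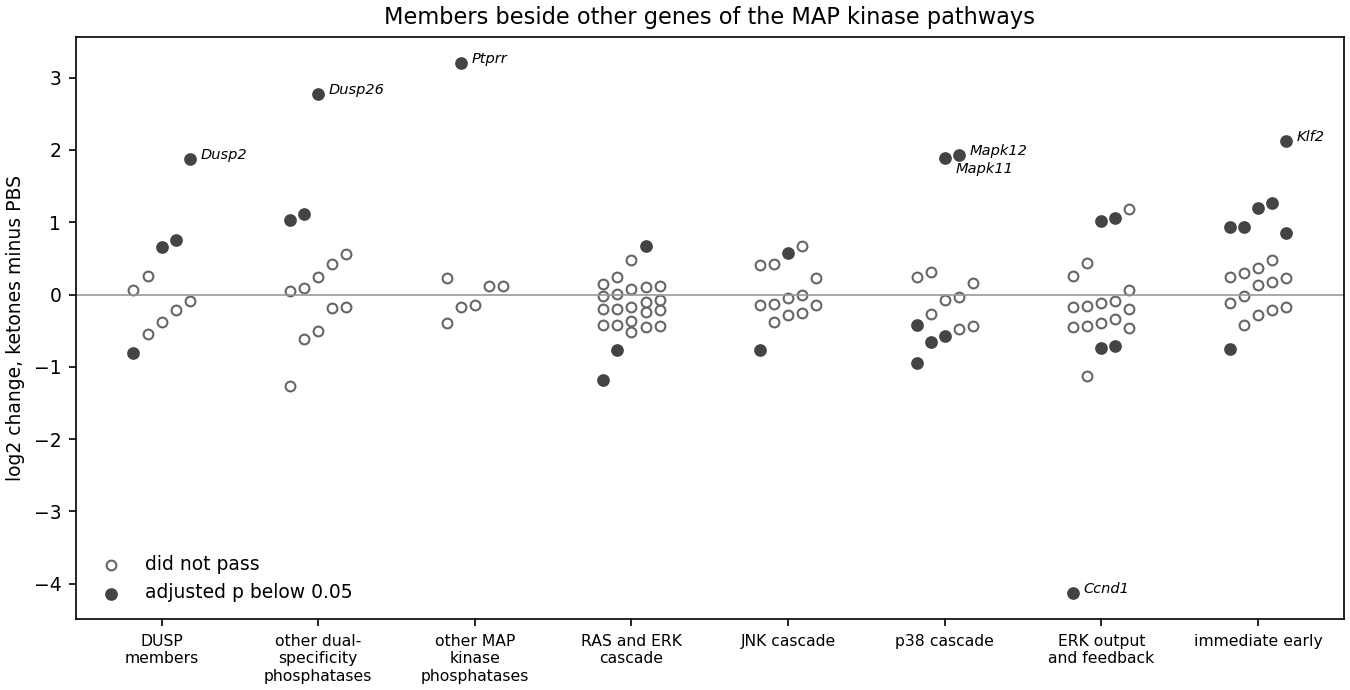
Log2 change, ketones minus PBS, of the DUSP members and of the tested genes of 7 lists of MAP kinase pathway genes. Each point is 1 gene, and filled points passed at an adjusted p below 0.05. Ptprr lies highest at 3.20 and Ccnd1 lowest at -4.13.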

How the data were processed

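RNA was measured in 8 libraries of sorted mouse muscle stem cells, 4 ketones and 4 PBS, grouped by the treatment label. Per the labels' protocols, cDNA was primed with oligo(dT), sheared and amplified, so reads may include PCR copies, which could not be told apart here. The limma intervals rest on the spread between libraries, which holds counting error and any noise from amplification. The deposited table holds a normalized signal per gene, read counts divided by 1 factor per library by the authors. Per the submitters' processing notes DESeq2, STAR, Trim Galore and featureCounts of Subread were used with build mm10, and the sources used here give neither versions nor the strand setting. Dividing by the step between low values gave whole reads for 100% of values in every library (within 0.001). Of 25239 rows, 2 with a date for a symbol were left out.

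Values were taken as log2(normalized count + 1) and tested with limma 3.58.1 in R 4.3.3 (lmFit, eBayes with a trend, no covariate, two-sided, Benjamini-Hochberg over all 14022 genes with a mean of at least 10, threshold 0.05). Each adjusted p printed is limma's unless a sentence names another tool. Fold changes on this scale understate changes of low genes. Levels per kilobase divide by the merged exon length in GENCODE M21 (96.6% of symbols matched). Recovered reads were also tested with edgeR 4.0.16 and DESeq2 1.42.0. The members, lists and tests were chosen with earlier results of these data known. The genes named were all members, up to 4 of each pathway list with the smallest p among those that passed, a fixed set of kinase, target and sort marker genes, and the 2 nearest profiles per member. One gene of that fixed set is not reported here. The rule also named 2 abundant genes per marker list, which are left out here and the lists given by counts, beside the sort markers. Rn45s and Ergic1 were added after their values were seen. Counts were simulated 3 times for 14022 genes, 200 of them changed. On these, limma recovered 8.67% of genes changed 1.5-fold, 45.3% at 2-fold and 82.7% at 4-fold, and 4.72% of its calls were unchanged genes. The simulation changed a smaller share of genes than the 25.7% that passed in the data. It also gave both groups the same spread per gene, while ketones libraries varied more, so these rates may not hold for this comparison.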

Additional observations from a re-analysis of the deposited data

Results flagged for a closer look

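In ketones library 4 Dusp7 stood at 523 normalized counts, apart from the other 3 ketones libraries, of which the nearest was at 355. The gap was 0.856 of the range of the group, above the 95% critical value of Dixon's test for 4 libraries. This was 1 of 20 groups checked, 10 members in 2 groups, and chance alone flags about 1 in 20. Without ketones library 4 the log2 change of Dusp7 was 0.50 and did not pass (adjusted p = 0.138).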

How the results depend on the processing

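Over 24 alternatives, Dusp1, Dusp2 and Dusp10 passed in the reported direction in 23 each, and failed with the endothelial covariate, where 0 members and 0 of 14022 genes were higher or lower by limma (0 members and 1438 genes at an unadjusted p below 0.05). With that covariate the log2 change was 0.70 for Dusp1, -1.32 for Dusp10 and -0.49 for Dusp2, and among members that had not passed the sign turned to 0.90 for Dusp4, -0.40 for Dusp5 and 0.15 for Dusp8. Dusp7 lost its pass in 11 of the 24. Beside the libraries named in the report these were no filter (adjusted p = 0.0707), TMM scaling (0.0548), quantile normalization (0.0785), the replicate block (0.0634), a threshold of 0.01 and the covariate. The number of members lower was 2, with Dusp16, under TMM scaling, library weights, DESeq2, a threshold of 0.1 and without ketones libraries 1 and 2. Over all tested genes the number lower was 1887 of 14024 under TMM scaling, 2490 of 14022 with library weights and 1923 of 14022 with DESeq2. It was 2342 of 14022 at a threshold of 0.1 and 2443 of 13782 without ketones libraries 1 and 2, against 1800 of 14022 in the main fit. With 1 library left out the members numbered 2 to 3 higher and 1 to 2 lower. Dusp14 also passed with library weights (adjusted p = 0.0497). With 1 library left out the log2 change ran, for Dusp5, between -0.046 and 0.18 and, for Dusp6, between -0.18 and 0.065. Without ketones libraries 1 and 2 it was 0.078 for Dusp5 and -0.26 for Dusp6, and neither gene passed in these settings. Over all genes 1272 to 1943 were higher and 1084 to 2127 lower with 1 library left out (lowest without PBS library 1, highest without ketones library 1, and 1192 lower without PBS library 3), and 1001 and 911 at a threshold of 0.01. edgeR gave 3 members higher and 1 lower, beside 1918 higher and 1679 lower of all 14022 tested genes. With the library number as a replicate block 2 members were higher and 1 lower, beside 1781 higher and 1814 lower of all 14022 tested genes. Same-numbered libraries deviated together with r of 0.106, -0.011, 0.003 and -0.061, and not every library correlated best with its own number. The value of 0.106, for the libraries numbered 1, was the largest of all pairs. Deviations were taken from the mean of only 4 libraries per group, so these values cannot tell whether libraries were paired. The cause of these moves was not tested. Dusp2, the member with the fewest reads over the 8 libraries, rested on 1541 reads in ketones libraries and 337 in PBS libraries.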
